A study of Mus musculus with 27 samples.

Results

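This account covers 8 genes, of the 31053 in the count matrices, that were chosen because most of them lay at or next to the places where hippocampal nuclei of mice with and without a P301S tau transgene differed. They are the noncoding transcripts Gm43049, Gm32754 and 4930590L14Rik on chromosome 3, the protein-coding genes Stpg2, Pdha2 and Unc5c around them, and Prnp and Prn, which overlap each other on chromosome 2. They were selected on their CPM in the 18 libraries with and the 9 without the transgene, or for their place beside such a gene, so that contrast is described here for these genes without a test. Tests were kept for Cgas genotype, sex, type of nucleus, the spread between libraries that carry the transgene, and the neighbouring genes. The choice read levels by class and subtype of nucleus, so tests between types of nucleus are not fully independent of it.

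The data were single-nucleus RNA-seq libraries of hippocampus from 27 mice, with 1 library per mouse, in 6 groups by tau transgene and Cgas genotype. The groups without the transgene, called tau-negative below, were Cgas+/+ (5 mice), Cgas+/- (2) and Cgas-/- (2), and the groups with it were P301S Cgas+/+, P301S Cgas+/- and P301S Cgas-/- (6 each, 3 males and 3 females). The mice came from crosses of a P301S line, in which human tau carrying a dementia-linked mutation is expressed from a mouse prion protein promoter, with a line that lacks Cgas, whose product senses DNA in the cytosol. All 4 tau-negative mice with a missing Cgas copy were males, and the labels gave no age. In this design the tau protein, the inserted DNA and the chromosome segments inherited with it cannot be told apart.

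The files held 46091490 to 79484316 UMIs (counted RNA molecules) per library in barcodes called as nuclei, and 204852 of 241938 barcodes were kept. Levels are UMIs per 1000000 UMIs of the same library and nuclei class (CPM), with 13729685 to 41832465 UMIs per library in excitatory neuron-like nuclei. Classes were named from marker genes, without the genes of the 8 or any neighbour in the clustering. The hippocampal label was borne out only in part, since 19368 of the 78984 excitatory neuron-like nuclei had cortical rather than hippocampal markers. Pairs of libraries shared 3 to 36 barcodes, and 0 of the 351 pairs had identical counts. The count files named 2 software versions in their headers, 3.0.2 in 12 libraries and 3.1.0 in 15. All 12 of the former came from males, and they included 6 of the 18 P301S and 6 of the 9 tau-negative libraries. Levels are sums over nuclei, and the share of nuclei with an RNA and its amount per nucleus were not separated here.

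Prnp encodes the cellular prion protein, a membrane-anchored glycoprotein that neurons make in quantity. Its promoter is widely used to drive transgenes in mouse brain, and such constructs carry untranslated Prnp exons, so reads from them can align to the endogenous gene. Prn is an annotated read-through locus that starts with Prnp and runs on to Prnd, the gene for the prion-like protein doppel. Transgenes made by pronuclear injection integrate at a place that is not chosen, usually as several copies, and can alter transcription of the surrounding DNA. Of the neighbours on chromosome 3, Unc5c encodes a netrin receptor that mediates axon repulsion and neuronal death when its ligand is absent. Stpg2 encodes a sperm-tail repeat protein of unclear function in brain, and Pdha2 a testis form of a pyruvate dehydrogenase subunit. Functions of the 3 noncoding transcripts are not known to the degree that one could be stated.

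On the GRCm38 assembly (GENCODE vM21), Gm43049 (ENSMUSG00000105777) lay at chr3:140692038-140760704 on the minus strand and overlapped no other gene of the count matrices. Gm32754 (ENSMUSG00000104544) lay at chr3:140904998-140917459 on the minus strand, and 4930590L14Rik (ENSMUSG00000106540) at chr3:140951876-140953247 on the plus strand. The protein-coding neighbours were Stpg2 (ENSMUSG00000047940, chr3:139205694-139710299, plus strand) on one side and Pdha2 (ENSMUSG00000047674, chr3:141210004-141212355, minus strand) and Unc5c (ENSMUSG00000059921, chr3:141465216-141834924, plus strand) on the other. Unc5c overlapped the antisense genes Gm15688 and Gm15689. Prnp (ENSMUSG00000079037) lay at chr2:131909928-131938429 and Prn (ENSMUSG00000098754) at chr2:131909957-131956130, both on the plus strand. Only 29 bases of Prnp were outside Prn, whereas 12431 of the 46174 bases of Prn were outside its same-strand neighbours Prnp and Prnd. Cell Ranger, the counting software, assigns a UMI only where its reads fit 1 gene, so most reads of the shared stretch could be given to neither gene, and the counts of Prnp and Prn do not measure the whole of the locus.

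Promoter sequences are shown for the shared start of Prnp and Prn, because the transgene is built on that promoter, and for the noncoding transcripts with an entry in the RefSeq table of promoters (GRCm38.p6). That table held 7 of the 8 genes, and Gm43049 had no entry. Each line gives the 250 bases before the start in that table, 5′ to 3′ on the strand of the gene, and the capitals mark matches, on either strand, to a TATA box (TATAAA or TTTATA), a GC box (GGGCGG or CCGCCC) or a CCAAT box (CCAAT or ATTGG). The windows are chr2:131909678-131909927 (plus strand) for Prnp and Prn, chr3:140951585-140951834 (plus strand) for 4930590L14Rik and chr3:140917319-140917568 (minus strand) for Gm32754. The RefSeq starts differ from the GENCODE positions above: the window of Gm32754 holds 141 bases inside the GENCODE gene, that of 4930590L14Rik ends 41 bases before its GENCODE start and that of Prn 29 bases before, and the start of Prnp is the same in both.
Prnp and Prn: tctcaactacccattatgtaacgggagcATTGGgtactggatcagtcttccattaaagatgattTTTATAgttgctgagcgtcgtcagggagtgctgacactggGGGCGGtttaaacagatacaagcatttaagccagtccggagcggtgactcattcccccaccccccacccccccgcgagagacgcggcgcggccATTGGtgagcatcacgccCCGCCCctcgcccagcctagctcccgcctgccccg
4930590L14Rik: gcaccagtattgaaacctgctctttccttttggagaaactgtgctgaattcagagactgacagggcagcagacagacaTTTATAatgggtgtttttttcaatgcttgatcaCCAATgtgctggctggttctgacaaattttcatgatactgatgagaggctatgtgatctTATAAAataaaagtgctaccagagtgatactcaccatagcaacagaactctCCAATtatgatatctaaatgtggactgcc
Gm32754: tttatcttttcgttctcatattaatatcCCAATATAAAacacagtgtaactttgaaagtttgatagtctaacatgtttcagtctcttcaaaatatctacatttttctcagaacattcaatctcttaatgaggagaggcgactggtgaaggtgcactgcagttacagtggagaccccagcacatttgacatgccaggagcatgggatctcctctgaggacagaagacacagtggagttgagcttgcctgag
Prnp and Prn had the same window, with 58.8% G and C, 1 TATA box, 2 GC boxes and 2 CCAAT boxes. The window of 4930590L14Rik had 40.0% G and C, 2 TATA boxes, 2 CCAAT boxes and 0 GC boxes. The window of Gm32754 had 40.8% G and C, with 1 TATA box and 1 CCAAT box that overlap, and 0 GC boxes. Among 32817 distinct windows of the same table the median content of G and C was 52.4%, and a TATA box stood in 12.37%, a GC box in 32.72% and a CCAAT box in 33.83%. Such matches describe the letters and are not evidence of a site in use.

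Gm43049 separated the libraries by transgene in excitatory neuron-like nuclei. Its level was 3.084 CPM in the lowest P301S library, 7.786 in the median and 21.01 in the highest of the 18, from 4738 UMIs. In the 9 tau-negative libraries 7 UMIs were counted, in 4 of the libraries, and the highest level was 0.128 CPM. Every P301S library stood above every tau-negative one, by a wide margin. Pooled, the levels were 10.02 and 0.02698 CPM, a ratio of 371.2 with an exact 95% counting interval of 180.0 to 923.7. This interval and those below cover counting error only. Of the 7 UMIs 3 were in Cgas-/- replicate 1, and without that library the ratio was 590.9 (230.6 to 2170).

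4930590L14Rik was lower but as cleanly divided. P301S libraries held 473 UMIs, at 0.5098 CPM in the lowest, 0.8937 in the median and 1.649 in the highest, and the tau-negative libraries held 1 UMI between them, in a Cgas-/- mouse. The ratio of pooled levels was 259.4 (46.33 to 10267), and without that mouse, Cgas-/- replicate 1, it was at least 78.65-fold, against a floor of 3 UMIs over the tau-negative libraries. Gm32754 was at 0.1658, 0.4911 and 1.99 CPM in the lowest, median and highest P301S library (373 UMIs). The tau-negative libraries held 7 UMIs of it, all in Cgas+/+ mice, with a highest level of 0.1015 CPM, and the ratio was 29.22 (14.04 to 73.18). Cgas+/+ replicate 5 held 4 of the 7, and without it the ratio was 57.83 (19.64 to 281.7). The lowest P301S library and the highest tau-negative one were therefore much closer for Gm32754 than for Gm43049. That lowest library, P301S Cgas-/- replicate 3, held 5 UMIs, and P301S Cgas+/+ replicate 3 held 3. The UMI counts of the 2 sets thus overlapped, and the gap in CPM rests on few UMIs and on depth.

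Prn differed by less and was present in every library. It was at 1.857 CPM in the lowest P301S library, 3.0 in the median and 3.793 in the highest (1372 UMIs). The tau-negative libraries were at 0.7361, 0.9746 and 1.363 CPM (250 UMIs), again below all 18 P301S libraries, and the ratio was 3.01 (2.628 to 3.458). Prnp itself was counted in few UMIs, 127 and 29. Its levels were 0.1053, 0.2644 and 0.4562 CPM in P301S libraries and 0.02538, 0.1059 and 0.2988 in tau-negative ones. The 2 sets overlapped, with 7 P301S libraries above all others, and the ratio was 2.402 (1.594 to 3.73). Prnd, into which Prn runs, had 0 UMIs in excitatory neuron-like nuclei.

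These 4 separations were rare. Of 23303 genes with at least 10 UMIs in excitatory neuron-like nuclei, 4 (0.0172%) were higher in all 18 P301S libraries than in all 9 others, and the 4 were Gm43049, 4930590L14Rik, Gm32754 and Prn. Since the genes were picked for this difference, the count describes the choice and tests nothing.

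**Figure D1:**
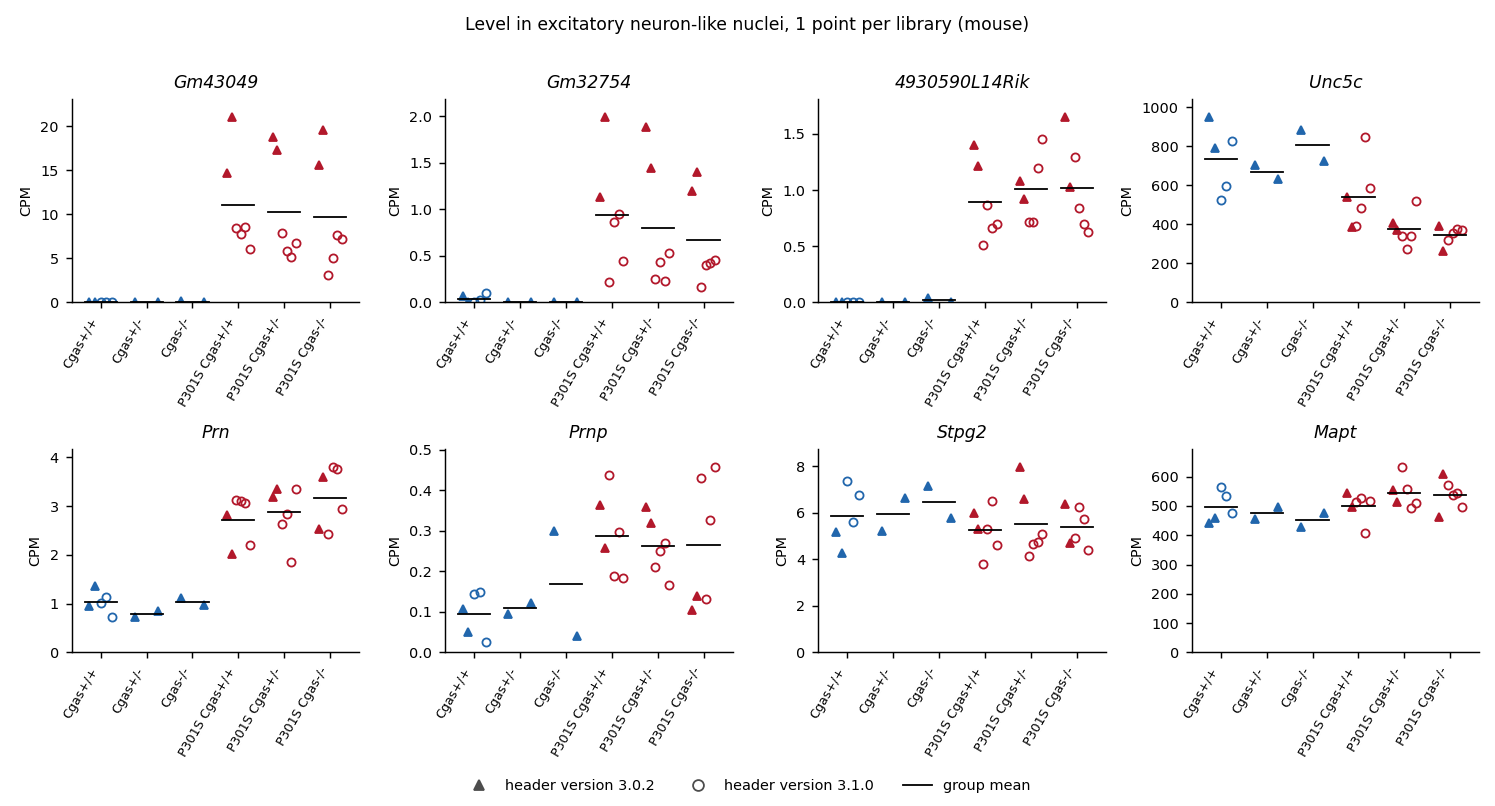
Level of 7 of the 8 genes and of Mapt in excitatory neuron-like nuclei (CPM, linear axis from 0), with 1 point per library, red for P301S and blue for tau-negative groups, filled triangles for header version 3.0.2, open circles for 3.1.0 and a line at the group mean. Gm43049, Gm32754, 4930590L14Rik and Prn leave a gap between red and blue, which is narrow for Gm32754. The P301S libraries of Gm43049 fall into a set at 14.67 to 21.01 CPM and a set at 3.084 to 8.563 CPM by header version.

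The protein-coding neighbours on chromosome 3 behaved differently. Unc5c was lower with the transgene, at 263.3, 382.4 and 850.0 CPM in the lowest, median and highest P301S library, and 525.5, 725.6 and 949.7 in the tau-negative libraries. Of the 18 P301S libraries, 15 lay below all tau-negative ones, and the ratio of pooled levels was 0.5871. Stpg2 overlapped almost completely, at 3.787, 5.187 and 7.948 CPM against 4.29, 5.766 and 7.367, a ratio of 0.8866. Pdha2 was not detected in excitatory neuron-like nuclei, and over all kept nuclei it had 1 UMI, in an astrocyte-like nucleus of a tau-negative mouse. The antisense gene Gm15688, which overlaps the start of Unc5c, was at 0.8716 ± 0.2983 CPM (SD, n = 18) in P301S and 1.747 ± 0.5826 (n = 9) in tau-negative libraries, and its log2 fold change of -0.80 ± 0.2124 (SE) missed the threshold (edgeR adjusted p = 0.2271). That fit did not include the software version in the file header, which was 3.0.2 in 6 of the 9 tau-negative and 6 of the 18 P301S libraries. Antisense genes were more often higher with 3.0.2 than other gene types were, as given below. The part of the version in the difference of Gm15688 was not separated here. Whether the 3' counting used strand is not given in the sources used here, so reads of Unc5c and Gm15688 may not be separable.

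The Unc5c contrast was also read by type of nucleus, as a description, and a difference between the ratios was not tested because the contrast chose the gene. The pooled level in P301S relative to tau-negative libraries was 0.6479 in CA1-like, 0.8722 in dentate granule-like, 0.8571 in CA3-like and 0.466 in cortical-like neurons. It was 0.5641 in inhibitory neuron-like and 0.5331 in microglia-like nuclei, where 13 of 18 P301S libraries lay below all others. The gene Slc17a7, which excitatory neurons use and which can gauge free RNA in other classes, was also lower in microglia-like nuclei with the transgene, at 31.24 against 54.9 CPM pooled, and Unc5c was at 28.66% of its excitatory level in P301S and 31.57% in tau-negative libraries, against 21.01% and 37.35% for Slc17a7 and 11.1% and 17.19% for 6 excitatory markers summed. Unc5c thus stood above the summed markers in both sets and above Slc17a7 only in the P301S set, and the part of free RNA in the microglia-like ratio was not tested. In oligodendrocyte-like nuclei, which had the highest level of the gene among the 6 classes compared, it was 1.022, and in oligodendrocyte progenitor-like nuclei 1.001. Unc5c in CA3-like nuclei was at 1595 ± 178.9 CPM (n = 13) in P301S and 2013 ± 136.4 (n = 8) in tau-negative libraries, above the means of the other excitatory subtypes and of inhibitory neuron-like nuclei, at 829.6 ± 183.8 (n = 18) and 1503 ± 277.7 (n = 9). CA3-like nuclei were a mean of 3.38% ± 4.488 (SD, n = 18) of excitatory neuron-like nuclei in P301S and 8.639% ± 4.469 (n = 9) in tau-negative libraries. The mean shares were 22.83% and 33.35% for dentate granule-like, 26.0% and 19.18% for cortical-like, in which Unc5c was lowest, and 23.22% and 9.15% for unnamed excitatory nuclei. The part of these differences in make-up in the class-wide value was not tested, nor was the mix of clusters within each subtype.

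The mouse tau gene, Mapt, did not stand out. It was at 408.2, 523.2 and 631.7 CPM in the lowest, median and highest P301S library and 427.4, 476.4 and 565.4 in the tau-negative ones, and the sets overlapped. The log2 fold change of 0.10 ± 0.0599 (SE) did not pass (edgeR adjusted p = 0.66). The human gene was not among the 31053 features, so its level was not analysed here.

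A split among the P301S libraries followed the software version in the file header. This comparison was added after the values had been seen, so its p-values restate a split already noticed and are not independent evidence of it. They do not measure its size. In excitatory neuron-like nuclei Gm43049 was at 17.82 ± 2.427 CPM (SD, n = 6) in the libraries of version 3.0.2 and 6.593 ± 1.637 (n = 12) in those of 3.1.0, without overlap (ratio 2.703, exact two-sided permutation test, p = 5.4e-05, adjusted p = 0.000189 over 7 genes). All 6 libraries of 3.0.2 were from males, and the 3 male libraries of 3.1.0 were at 6.036 to 7.835 CPM, also below all 6 (exact permutation test, p = 0.0119, the smallest that 6 against 3 allows, adjusted p = 0.0417). Gm32754 showed the same split, at 1.506 ± 0.3557 and 0.4467 ± 0.2451 CPM (ratio 3.372, exact permutation test, adjusted p = 0.000189).

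4930590L14Rik, which lies on the opposite strand from those 2 transcripts, differed less, at 1.215 ± 0.2709 and 0.8565 ± 0.2974 CPM with overlapping libraries (exact permutation test, adjusted p = 0.045). Stpg2 was at 6.153 ± 1.124 and 5.012 ± 0.8148 CPM (adjusted p = 0.045, same test). Against the 3 male libraries of 3.1.0 alone neither call held (exact permutation tests, adjusted p = 0.0556 for 4930590L14Rik and 0.208 for Stpg2), while that of Gm32754 did (adjusted p = 0.0417). The ratios of 4930590L14Rik and Stpg2 did not fall, at 1.729 and 1.276 against these males and 1.419 and 1.228 against all 12. Fewer libraries were compared, and for 4930590L14Rik all 6 of 3.0.2 stood above the 3 males. Prn was at 2.915 ± 0.5783 CPM in libraries of 3.0.2 (n = 6) and 2.924 ± 0.582 in those of 3.1.0 (n = 12, exact permutation test, p = 0.976). In inhibitory neuron-like nuclei Prn was at 1.054 and 1.689 CPM and in microglia-like nuclei, with 7 UMIs in all, at 0.9017 and 0.1102 (exact permutation tests, unadjusted p = 0.045 and 0.0062). In excitatory neuron-like nuclei Unc5c and Prnp gave adjusted p = 0.815 each by the same exact permutation test. Tau-negative libraries stayed near 0 for Gm43049 with either version, at 0.02667 ± 0.05128 CPM (n = 6) and 0.0278 ± 0.02908 (n = 3).

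The version was not particular to these genes. Of the 23303 genes, 598 (2.57%) were higher in all 6 P301S libraries of 3.0.2 than in all 12 of 3.1.0. Antisense genes made up 41.64% of the 598, and 10.77% of the 2313 antisense genes measured were in that set, against 2.395% of 3298 lincRNA genes and 1.516% of 17617 protein-coding genes. What else differed between the libraries of each version (date, reads per library or tissue handling) is not given in the sources used here. The separation by transgene held within each version: the lowest P301S library of Gm43049 was at 14.67 CPM with 3.0.2 and 3.084 with 3.1.0.

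**Figure D2:**
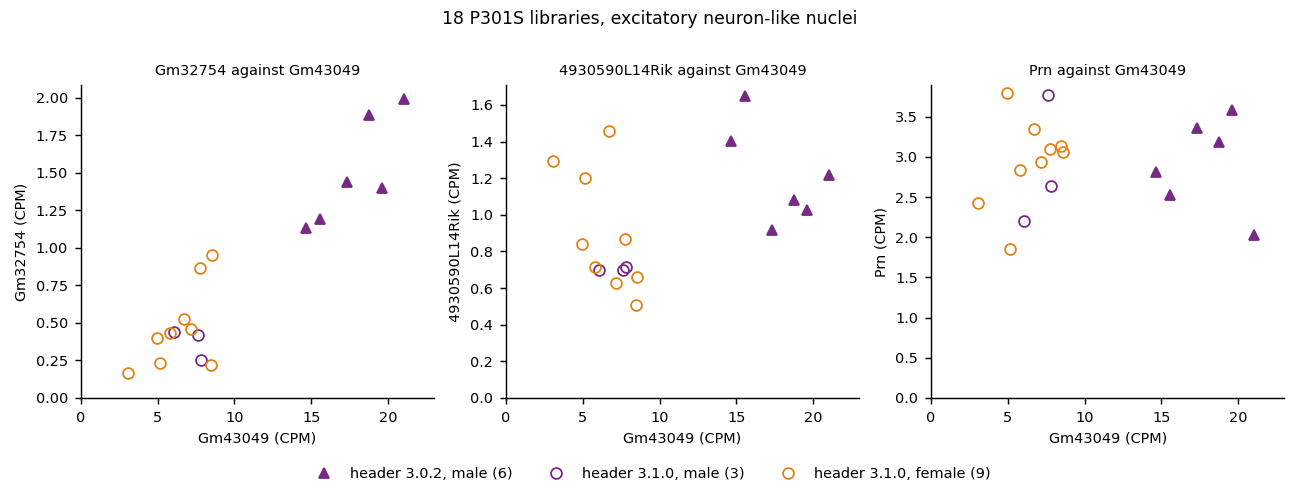
Gm32754, 4930590L14Rik and Prn (vertical axes, CPM) against Gm43049 (horizontal axis, CPM) in excitatory neuron-like nuclei of the 18 P301S libraries, with triangles for header version 3.0.2 (6 males) and open circles for 3.1.0 (3 males in purple, 9 females in orange). Gm32754 is higher where Gm43049 is higher, whereas the Prn ranges overlap, at 2.027 to 3.586 CPM with 3.0.2 and 1.857 to 3.793 with 3.1.0.

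The relation between the genes across P301S libraries was therefore read within a version. In the 12 libraries of 3.1.0, Gm43049 fell as 4930590L14Rik rose (Pearson r = -0.60, Spearman rho = -0.64), but after adjustment over 7 relations neither passed (permutation test, adjusted p = 0.13 and 0.172), and r was -0.50 without the 2 farthest libraries. With Gm32754 r was 0.50 (rho = 0.40, permutation test, adjusted p = 0.238) and 0.37 without those 2. With Prn it was 0.36 (rho = 0.27, permutation test, adjusted p = 0.345) and 0.64 without them. The median UMI count per nucleus gave r = -0.65 (rho = -0.52), which did not pass either (permutation test, adjusted p = 0.13). In the 6 libraries of 3.0.2, Gm32754 gave r = 0.84 and rho = 0.83 with Gm43049 (exact permutation test, p = 0.0431, adjusted p = 0.301). None of the 14 relations passed the adjustment.

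Females and males of the P301S groups differed in Gm43049, at 6.402 ± 1.811 CPM (n = 9) and 14.27 ± 5.686 (n = 9, exact permutation test, adjusted p = 0.0161), and in Gm32754, at 0.4721 ± 0.2776 and 1.128 ± 0.6358 CPM (adjusted p = 0.0429, same test). Sex and header version coincided in part, since 6 of the 9 males and 0 of the 9 females had version 3.0.2. Within version 3.1.0, Gm43049 was at 6.402 CPM in the 9 females and 7.165 ± 0.9836 in the 3 males (exact permutation test, p = 0.5), and Gm32754 was higher in females, at 0.4721 against 0.3705 CPM (exact permutation test, p = 0.632). The difference between the sexes thus did not hold within the version that has both, and the call for Gm32754 was also lost without any of 13 of the 18 libraries (adjusted p = 0.0642 to 0.0838). The other 5 genes gave adjusted p-values of 0.4935 to 0.8806 between sexes (exact permutation tests). The share of all genes that differ by sex was not computed.

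The design also asks whether loss of Cgas changes these transcripts while the transgene is present. None of the 7 detected genes passed in P301S Cgas-/- or P301S Cgas+/- against P301S Cgas+/+ (exact permutation tests with 6 against 6 libraries, 14 tests, smallest possible p = 0.002165). Gm43049 was at 9.673 ± 6.474 CPM in P301S Cgas-/-, 10.26 ± 6.11 in P301S Cgas+/- and 11.08 ± 5.68 in P301S Cgas+/+ (n = 6 each, exact permutation tests, adjusted p = 0.768 for both). Prn was at 3.171 ± 0.6237, 2.87 ± 0.5739 and 2.722 ± 0.4853 CPM in the same order. Each Cgas genotype held 2 libraries of version 3.0.2 and 4 of 3.1.0. The split by version is therefore part of the spread of Gm43049 within each genotype. Within 3.1.0 alone Gm43049 was at 5.712, 6.371 and 7.696 CPM in the same order (n = 4 each). Neither comparison passed (exact permutation tests, adjusted p = 0.48 for both). Within 3.0.2 it was at 17.6, 18.04 and 17.84 CPM (n = 2 each). With the version as a covariate, edgeR gave adjusted p = 0.4145 for Gm43049 and 0.3586 for Gm32754 in P301S Cgas-/-.

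Unc5c came nearest to a Cgas difference. It was at 347.2 ± 47.61 CPM in P301S Cgas-/-, 375.8 ± 83.62 in P301S Cgas+/- and 540.1 ± 171.2 in P301S Cgas+/+ (n = 6 each), and the exact permutation test gave p = 0.006494 (adjusted p = 0.0909) and p = 0.0411 (adjusted p = 0.288) against P301S Cgas+/+. In the edgeR fit over 16587 genes, in which 0 genes (0%) were called for Cgas-/- and 1 (0.00603%) for Cgas+/-, Unc5c had log2 fold changes of -0.69 ± 0.2056 (SE, adjusted p = 0.157) and -0.59 ± 0.2053 (adjusted p = 0.229). In that fit 2375 and 2040 genes had an unadjusted p under 0.05, and DESeq2 called 375 and 336, Unc5c among the former (DESeq2 adjusted p = 0.0482). CA3-like nuclei were 6.934% ± 6.369 of excitatory neuron-like nuclei in P301S Cgas+/+, 1.951% ± 1.518 in P301S Cgas+/- and 1.254% ± 1.609 in P301S Cgas-/-. In the same order the mean share, not tested, was 32.33%, 20.44% and 15.72% for dentate granule-like, 17.97%, 28.1% and 31.93% for cortical-like, in which Unc5c was lowest, and 10.93%, 30.94% and 27.8% for unnamed excitatory nuclei. Within CA1-like nuclei, Unc5c was at 421.8 ± 94.38 CPM in P301S Cgas-/- and 423.6 ± 124.7 in P301S Cgas+/+ (exact permutation test, p = 0.974), and within dentate granule-like nuclei at 489.7 ± 57.16 (n = 5) and 499.5 ± 21.48 (n = 6). In cortical-like nuclei it was at 133.1 ± 13.83 (n = 6) and 192.2 ± 41.84 CPM (n = 5, exact permutation test, p = 0.00433, adjusted p = 0.052 over 12 tests). P301S Cgas+/- was at 131.3 ± 40.16 CPM there (adjusted p = 0.1645, same test) and higher, at 464.1 ± 183.1, in CA1-like nuclei. In inhibitory neuron-like nuclei Unc5c was at 799.7 ± 186, 731.8 ± 163.1 and 957.3 ± 146.9 CPM in P301S Cgas-/-, P301S Cgas+/- and P301S Cgas+/+ (adjusted p = 0.3273 and 0.1558, same test). Oligodendrocyte-like nuclei were at 1605, 1492 and 1493 CPM in that order. None of the 12 tests passed.

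Across nuclei classes of the P301S libraries, Gm43049 followed neurons and oligodendrocyte progenitors. Excitatory and inhibitory neuron-like nuclei were at 10.34 ± 5.757 and 10.86 ± 5.982 CPM (n = 18, paired permutation test, adjusted p = 0.437), with inhibitory nuclei higher in 12 of 18 mice. Astrocyte-like nuclei were at 2.314 ± 1.509 CPM, oligodendrocyte-like at 3.186 ± 1.9 and microglia-like at 2.199 ± 2.451. Each was below the excitatory level in 18 of 18 mice (adjusted p = 0.000102 each, paired permutation tests). In oligodendrocyte progenitor-like nuclei the median was 10.05 CPM, between 0 and 25.13, from 176 UMIs. Tau-negative libraries held 1 UMI of Gm43049 in inhibitory neuron-like and 1 in microglia-like nuclei, and 0 in astrocyte-, oligodendrocyte- and oligodendrocyte progenitor-like nuclei. The pooled ratio of P301S to tau-negative libraries was 390.9 in inhibitory neuron-like nuclei. In microglia-like nuclei, with 31 UMIs in P301S libraries, it was 9.003.

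Free RNA in the droplets can add neuronal UMIs to other classes. Slc17a7, the vesicular glutamate transporter of excitatory neurons, was taken as a gauge of it, and its size was not measured directly. Slc17a7 in P301S libraries was at 10.77% of its excitatory level in astrocyte-like nuclei, 19.42% in oligodendrocyte-like and 21.01% in microglia-like nuclei, and 11.87% in oligodendrocyte progenitor-like nuclei. The 6 excitatory markers summed were at 5.691%, 9.242%, 11.1% and 5.837%. Gm43049 was at 24.98%, 30.46%, 20.14% and 110.8% in the same order. Its share in microglia-like nuclei was no higher than that of Slc17a7 but above that of the summed markers, while in oligodendrocyte progenitor-like nuclei it was several times both. For astrocyte- and oligodendrocyte-like nuclei it stood above both measures, and the part of free RNA in the values of these 3 glial classes was not tested. The summed markers in excitatory neuron-like nuclei were 1735 to 2756 CPM in P301S and 1704 to 2232 in tau-negative libraries.

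The other noncoding transcripts were counted in fewer UMIs, and their order over the classes differed in part from that of Gm43049. 4930590L14Rik was at 0.9761 ± 0.3302 CPM in excitatory, 0.6146 ± 0.6033 in inhibitory neuron-like, 0.2527 ± 0.2503 in astrocyte-like and 0.393 ± 0.363 in oligodendrocyte-like nuclei (paired permutation tests against excitatory, adjusted p = 0.075, 0.000175 and 0.000296), and the first of these passed without P301S Cgas-/- replicate 4 (adjusted p = 0.00158) or replicate 5 (0.0458). It was higher in excitatory than in inhibitory nuclei in 15 of 18 mice, where Gm43049 was in 6. In oligodendrocyte progenitor-like nuclei 5 UMIs of it were counted, 31.52% of its excitatory level, and in microglia-like nuclei 7 UMIs, 45.56% of it and the highest share of these 4 glial classes, against 20.14% for Gm43049. Gm32754 was at 0.7999 ± 0.5833 CPM in excitatory and 0.7903 ± 0.8634 in inhibitory neuron-like nuclei (paired permutation test, adjusted p = 0.95), and at 21.95% and 22.66% of the excitatory level in astrocyte- and oligodendrocyte-like nuclei (adjusted p = 0.000102 and 0.00016, same test). Pooled over libraries it was at 71.96% in oligodendrocyte progenitor-like and 16.51% in microglia-like nuclei.

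Prn had another distribution. It was at 2.921 ± 0.5635 CPM in excitatory and 1.477 ± 0.6657 in inhibitory neuron-like nuclei, higher in the excitatory nuclei of 18 of 18 mice (paired permutation test, adjusted p = 0.000102). Oligodendrocyte-like nuclei were close to excitatory ones, at 2.76 ± 1.271 CPM (9 of 18 mice higher, adjusted p = 0.539), astrocyte-like nuclei were lower at 2.297 ± 0.7184 (adjusted p = 0.0197, paired permutation tests) and microglia-like nuclei were at 0.3741 ± 0.6063, with 7 UMIs in all. The pooled ratio of P301S to tau-negative libraries was 3.01 in excitatory neuron-like, 3.429 (2.014 to 6.222) in inhibitory neuron-like, 1.903 (1.308 to 2.854) in oligodendrocyte-like, 1.283 (0.9397 to 1.771) in astrocyte-like and 6.098 (1.918 to 31.03) in oligodendrocyte progenitor-like nuclei, the last from 34 and 3 UMIs. Tau-negative astrocyte-like nuclei already held Prn at 1.825 CPM. A difference between these ratios was not tested, because the contrast chose the gene.

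**Figure D3:**
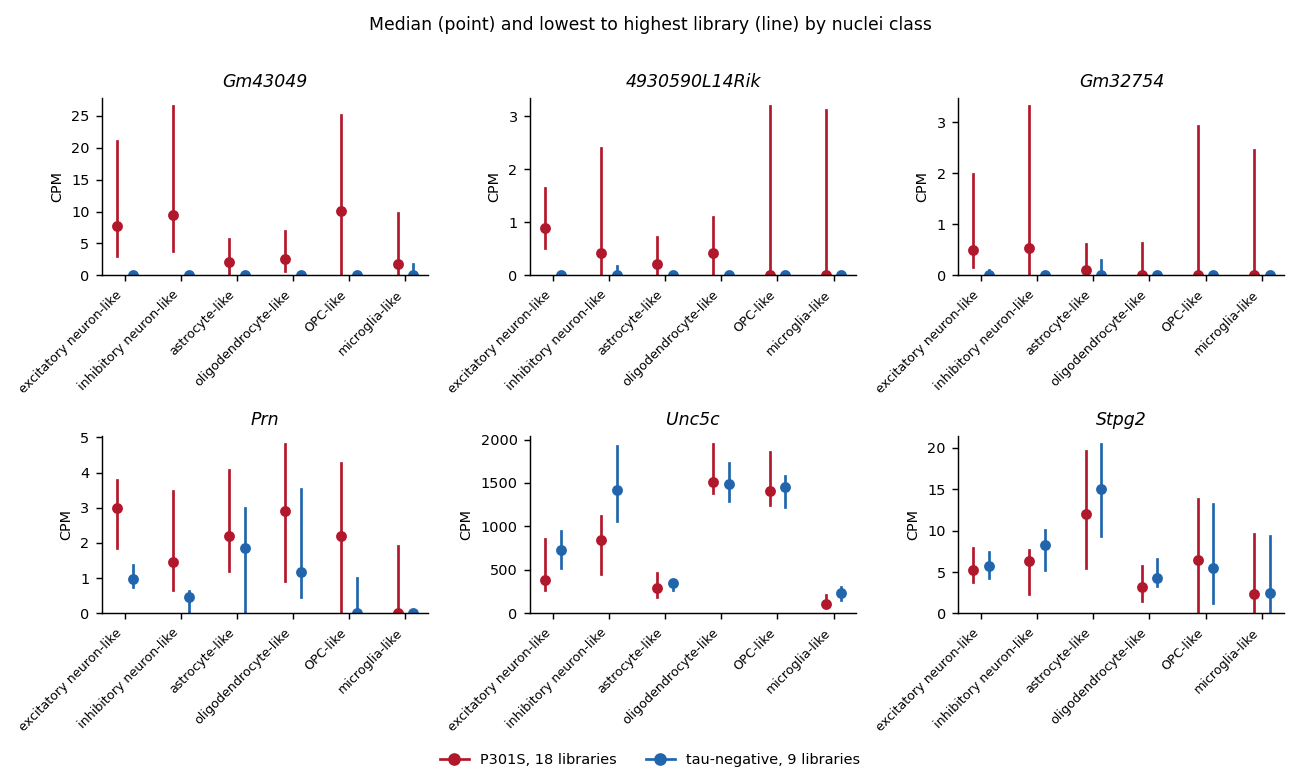
Level (CPM) of 6 genes in 6 nuclei classes, with the median as a point and a line from the lowest to the highest library, red for the 18 P301S and blue for the 9 tau-negative libraries (OPC, oligodendrocyte progenitor). Blue is at or near 0 in every class for the 3 noncoding transcripts, but red also reaches 0 for some of them in glial classes. In astrocyte-like nuclei the highest blue library of Gm32754, at 0.3101 CPM, is above the red median of 0.1042. Prn overlaps in astrocyte-like nuclei, and Unc5c is at about the same level in both sets in oligodendrocyte-like nuclei.

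Unc5c and Stpg2 had their own class patterns in the P301S libraries. Unc5c was at 421.0 ± 137.8 CPM in excitatory neuron-like, 829.6 ± 183.8 in inhibitory neuron-like and 1530 ± 134.9 in oligodendrocyte-like nuclei, with both of the latter higher in 18 of 18 mice (paired permutation tests, adjusted p = 0.000102). Microglia-like nuclei were lowest, at 125.7 ± 42.48 CPM, or 28.66% of the pooled excitatory level, set beside the gauges of free RNA above. Stpg2 was highest in astrocyte-like nuclei among the tested classes, at 12.15 ± 3.515 CPM against 5.392 ± 1.052 in excitatory neuron-like nuclei (18 of 18 mice, adjusted p = 0.000102, paired permutation test). In ependymal-like nuclei, ciliated cells that line the ventricles, its median was 37.91 CPM in P301S and 43.54 in tau-negative libraries.

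Among excitatory subtypes, Gm43049 was higher in CA1-like than in dentate granule-like nuclei, at 11.88 ± 6.488 and 7.59 ± 4.642 CPM (17 of 17 mice with at least 30 nuclei of each, paired permutation test, adjusted p = 0.000131). CA1-like nuclei pooled several clusters. In some of these, including 1 with 2116 of the 21104 nuclei, no CA1 marker was among the leading genes. Cortical-like nuclei were also above dentate granule-like ones, at 10.16 ± 5.378 and 7.726 ± 4.759 CPM in 14 of 16 mice (paired permutation test, adjusted p = 0.000855). CA3-like nuclei, with 13 mice, did not pass against dentate granule-like (adjusted p = 0.136) or CA1-like nuclei (adjusted p = 0.0905, paired permutation tests), though the former passed without P301S Cgas+/+ replicate 3 (adjusted p = 0.0397) and the latter without P301S Cgas+/- replicate 2 (adjusted p = 0.0294). 4930590L14Rik, at 1.243 ± 0.7471 and 0.4607 ± 0.4338 CPM, and Gm32754, at 0.9249 ± 0.793 and 0.3676 ± 0.4548 CPM, were likewise higher in CA1-like than in dentate granule-like nuclei (adjusted p = 0.00123 and 0.0059, paired permutation tests). Prn, at 3.466 ± 1.338 and 2.917 ± 1.176 CPM, was not (11 of 17 mice, adjusted p = 0.159, same test).

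Stpg2 was likewise higher in CA1-like nuclei, at 7.161 ± 1.576 CPM in CA1-like and 3.707 ± 1.166 in dentate granule-like nuclei (16 of 17 mice, paired permutation test, adjusted p = 0.000175), but cortical-like against dentate granule-like nuclei, at 4.771 ± 1.851 and 3.712 ± 1.204 CPM, did not pass (13 of 16 mice, adjusted p = 0.0895). Unc5c was highest in CA3-like nuclei, at 1595 ± 178.9 CPM against 481.6 ± 44.1 in dentate granule-like nuclei of the same 13 mice (13 of 13, adjusted p = 0.00072) and 431.0 ± 148.8 in CA1-like nuclei. It was lowest in cortical-like nuclei, at 151.8 ± 42.98 CPM (0 of 16 mice above dentate granule-like nuclei, adjusted p = 0.000131, paired permutation tests). Of the 56 comparisons of classes and subtypes, 29 passed. The share of all genes that would pass the same comparisons was not computed, so the count does not set these genes apart.

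**Figure D4:**
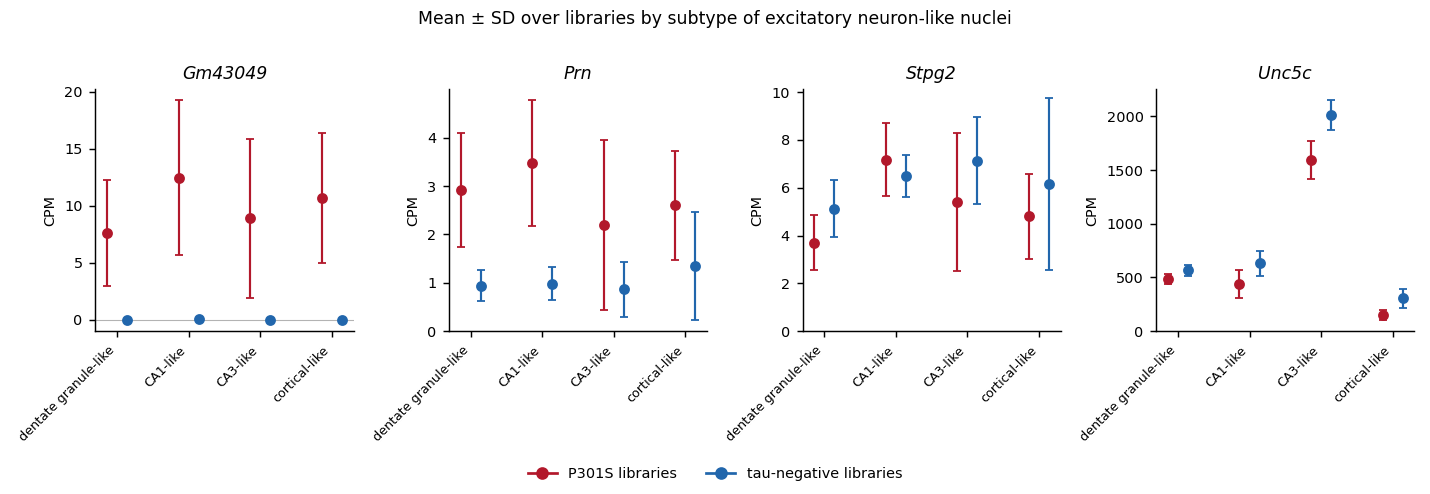
Mean level (CPM) ± SD over libraries of Gm43049, Prn, Stpg2 and Unc5c in 4 subtypes of excitatory neuron-like nuclei, red for P301S and blue for tau-negative libraries with at least 30 nuclei of the subtype. Gm43049 is lower in dentate granule-like than in CA1-like nuclei in P301S libraries, Unc5c is highest in CA3-like nuclei in both sets, and the Unc5c means of P301S libraries lie below the tau-negative ones in each subtype.

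The neighbourhood was then read for genes outside the 8, with windows of 5 Mb on either side of the start of Gm43049 (95 other genes) and 1 Mb on either side of the start of Prnp (43 other genes). In excitatory neuron-like nuclei 81 of these could be tested between the 18 P301S and 9 tau-negative libraries, and edgeR called 0 (8 at an unadjusted p under 0.05, DESeq2 2), against 10 of 17012 genes (0.0588%) over the genome. Of all those genes 1468 had an unadjusted p under 0.05, and DESeq2 called 0.3292%. In inhibitory neuron-like nuclei edgeR called 0 of 47 (8 at an unadjusted p under 0.05, DESeq2 0), against 0.0158% of all genes (540 of 12647 at an unadjusted p under 0.05). In oligodendrocyte-like nuclei it called 0 of 44 (5 at an unadjusted p under 0.05, DESeq2 1), against 0.0244% of all genes (1702 of 12314 at an unadjusted p under 0.05, DESeq2 1.567%). The nearest measured protein-coding genes beyond Stpg2 and Unc5c, which were named after their values were seen, were Rap1gds1 and Bmpr1b. Rap1gds1, a regulator of small GTPases, was at 184.8 ± 22.05 CPM (n = 18) and 163.9 ± 23.81 (n = 9) in excitatory neuron-like nuclei (edgeR adjusted p = 0.704). Bmpr1b, a bone morphogenetic protein receptor, was at 9.164 ± 11.85 and 13.08 ± 3.269 CPM (adjusted p = 0.617).

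Astrocyte-like nuclei had a cluster of changed neighbours. Of 51 genes tested there, edgeR called 5, all higher in P301S libraries, or 9.804% of the windows against 3.91% of all genes. They were Gbp5, Gbp7, Gbp3, Gbp2b and Gbp2, adjacent members of the guanylate-binding protein family, which are induced by interferon, 1802 to 1929 kb from the start of Gm43049. As members of 1 family these 5 are not independent, so the 2 shares do not test whether the windows are enriched. The study reported higher interferon genes in P301S hippocampi, and the part of that in the Gbp values was not tested. Gbp2b was at 0.5988, 4.645 and 14.31 CPM in the lowest, median and highest P301S library and at 0, 0 and 0.2517 in tau-negative ones without overlap (log2 fold change 5.55 ± 0.7726 SE, edgeR adjusted p = 0.000831). Gbp3 was at 0.2994, 10.14 and 24.11 against 0.5327, 1.876 and 3.021 CPM (log2 fold change 2.39 ± 0.4795, adjusted p = 0.00818), and the P301S libraries overlapped the others at their low end. Over all kept nuclei the same 5 genes and Sh3glb1, which encodes a protein that bends membranes, were called, 6 of 87 or 6.897%, against 2.14% of all genes. With P301S Cgas+/+ against Cgas+/+ alone, or with the 15 libraries of header version 3.1.0 alone, edgeR called 0 window genes in astrocyte-like nuclei. It also called 0 of all 12918 and 12982 genes tested there, so these settings do not set the window genes apart. Sh3glb1 lost its call without any of 16 libraries. Of the chromosome 2 window 33 genes could be tested in excitatory neuron-like nuclei, 19 in inhibitory neuron-, astrocyte- and oligodendrocyte-like nuclei each and 34 over all kept nuclei, and edgeR called 0 of them (2, 2, 5, 2 and 6 at an unadjusted p under 0.05). Of all genes, 2481 of 13084 in astrocyte-like nuclei and 2857 of 19202 over all kept nuclei had such a p.

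In microglia-like nuclei 8 of 41 window genes were called (19.51%), against 14.7% of all genes. Rnf24, Slc23a2, Dnajb14 and Tspan5 were higher and Gm31243, Bank1, Ppp3ca and Pdlim5 lower in P301S libraries. Slc23a2, a vitamin C transporter 142.6 kb from the start of Prnp, was at 238.6 ± 48.71 CPM (n = 18) in P301S and 167.0 ± 16.37 (n = 9) in tau-negative libraries (log2 fold change 0.53 ± 0.1192 SE, edgeR adjusted p = 0.00373). Bank1, a B-cell scaffold protein, was at 161.9 ± 123.4 and 400.9 ± 53.48 CPM (log2 fold change -1.55 ± 0.4059, edgeR adjusted p = 0.013). Slc17a7 was also lower in P301S in this class, at 33.92 ± 13.12 and 54.44 ± 14.3 CPM (edgeR adjusted p = 0.00728), so this neuronal transcript moved with the groups, and the part of its source, free RNA or other, in these values was not tested. With P301S Cgas+/+ against Cgas+/+ alone, or header version 3.1.0 alone, 0 of these genes were called. In this class edgeR then also called 0 of all 8288 and 9536 genes tested, so these settings do not set the window genes apart. Tspan5 lost its call without any of 17 libraries.

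**Figure D5:**
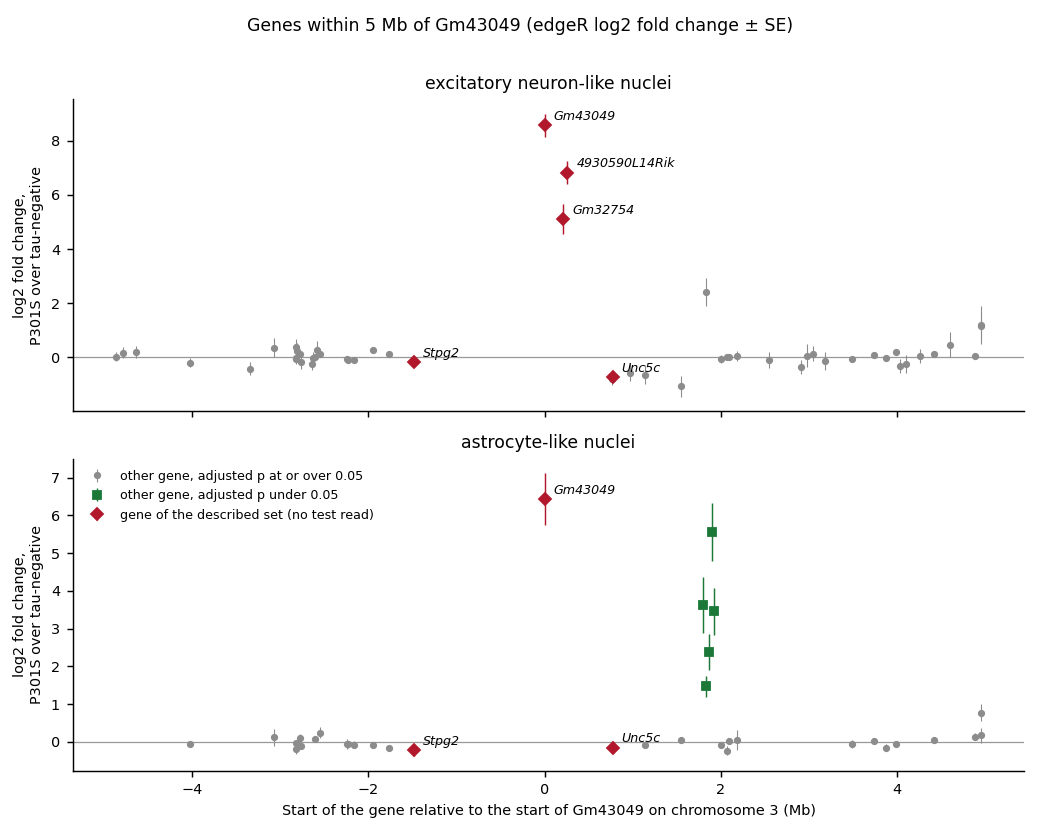
edgeR log2 fold change (P301S over tau-negative, error bars SE) of the genes that could be tested within 5 Mb of the start of Gm43049 on chromosome 3, by distance in Mb, in excitatory neuron-like and astrocyte-like nuclei; diamonds are genes of the described set, green squares other genes with an adjusted p under 0.05 and grey points the rest. In excitatory neuron-like nuclei the 3 noncoding transcripts stand above the rest and 0 other genes pass, whereas in astrocyte-like nuclei the 5 called genes are those 1802 to 1929 kb away.

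Last, genes outside the 8 were ranked by how closely their level followed Gm43049 in excitatory neuron-like nuclei, as a description. Over all 27 libraries and 13763 genes with a mean of at least 1 CPM, the closest were Gm42953 (r = 0.73), Gm10371 (0.73), Fam169a (0.72), Gm45352 (0.72) and Gm43948 (0.71). None of these 5 separated the transgene groups, and Gm42953 was at a mean of 2.036 CPM in P301S and 1.032 in tau-negative libraries. Among the 8, Gm32754 had r = 0.95, 4930590L14Rik 0.75, Prn 0.67 and Unc5c -0.58 over the same libraries, on which the choice of the genes also rested. Over the 18 P301S libraries the closest were Far1os, Gm29237, Rsf1os1, Gm26733 and Gm47271, with r of 0.98 each. These 5 are 4 antisense genes and 1 lincRNA on other chromosomes. Within the 6 libraries of version 3.0.2 their r was 0.77 to 0.96 and within the 12 of 3.1.0 it was 0.79 to 0.93, whereas the first 5 genes had 0.22 to 0.65 and -0.28 to 0.26. They also differed with the header version: Far1os was at 20.11 CPM in the P301S libraries of version 3.0.2 and 7.403 in those of 3.1.0, and at 18.86 and 6.209 CPM in the tau-negative libraries. In contrast to Gm43049 they were therefore present without the transgene.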

How the data were processed

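Nuclei of frozen mouse hippocampi, 27 libraries of 1 mouse each (10x Chromium 3' v3), were analysed from the deposited counts. The authors made these UMI counts per gene and barcode by aligning reads to mm10 with pre-mRNA counting (Cell Ranger 3.1.0 and, for their own analysis, Seurat 3.0 per the submitters' processing notes). The deposited counts are raw, and their headers name version 3.0.2 or 3.1.0, and the annotation release is not given in the sources used here. GENCODE vM21 (GRCm38) matched 31011 of 31053 gene IDs and gave the positions.

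The study's stated limits kept nuclei with 200 to 4000 detected genes and no more than 5% of UMIs from mitochondrial genes. Scrublet (scanpy 1.11.5) scores ranked doublets, and the top 0.8% of nuclei for every 1000 barcodes in the library were discarded. The 2000 most variable genes, without the genes of both windows, gave 30 principal components and Leiden clusters (igraph 0.11.9, resolution 1), with no correction between libraries. Of 43 clusters 36 were named "X-like" from at least 3 detected markers, and 7, with 7.277% of nuclei, stayed unnamed. The naming rule was revised after cluster names had been seen: a cluster with a median UMI count under 20% of the other clusters of its class lost its name. Rebuilt names can differ from those of the study.

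UMIs were summed per library and class. The tau contrast was fitted with edgeR 4.0.16 (quasi-likelihood, TMM, filterByExpr, Benjamini-Hochberg over all genes tested) in R 4.3.3 on all 27 libraries with Cgas genotype and sex as covariates, and the Cgas contrasts on the 18 P301S libraries with sex. The study tested nuclei, whereas mice were the replicates here. Single genes were compared on linear CPM by exact permutation tests, and classes within mice by paired sign flips (100000 resamples) over mice with at least 30 nuclei of both classes. All tests were two-sided, with 0.05 as the threshold of adjusted p. The SE printed with an edgeR log2 fold change was derived from its test, as the absolute fold change over the square root of the F statistic. It is not an SE that edgeR estimates. The edgeR step was tested on simulated counts. Alternatives were DESeq2 1.42.0, RLE size factors, no low-count filter, all deposited barcodes, fewer groups, a log2 scale with a pseudocount of 1, each library left out and, added after the data were seen, the header version, no minimum of nuclei and pooled ratios without each library. The correlations were planned over all 18 P301S libraries, but Gm43049 separates the header versions, so they were tested within each version only. The ranking of genes most like Gm43049 used r over all 27 and over the 18 P301S libraries, as a description.

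The 8 genes, the gene lists and the tests were chosen with earlier results of these data known. Named besides the 8 are window genes called in the tau contrast, the nearest measured protein-coding genes, Prnd, Mapt, free-RNA markers and the 5 genes most like Gm43049. Kept nuclei numbered 5840 to 12572 per library, with a median of 2025 to 7538 UMIs.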

Additional observations from a re-analysis of the deposited data

Results flagged for a closer look

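Mapt in excitatory neuron-like nuclei was at 408.2 CPM in P301S Cgas+/+ replicate 5, apart from the other 5 libraries of its group, whose nearest value was 495.2 and highest 545.1 CPM. Its gap to the nearest library was 0.6354 of the range of the group, over Dixon's critical value of 0.625 for 6 samples. Values of the described genes and of Mapt were checked in 31 groups, and this was the 1 that stood apart, where chance flags about 1 in 20.

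Gm43049 was also found in the nuclei that were left unnamed, which entered comparisons only as part of all kept nuclei, at 12.02 CPM pooled over the P301S libraries (589 UMIs, in 18 of 18 libraries), against 0 UMIs in the tau-negative libraries. The 6 excitatory markers in these nuclei stood at 46.04% of their level in excitatory neuron-like nuclei, so the nuclei held neuronal RNA.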

How the results depend on the processing

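Of 2514 recomputed values of single genes, 2305 kept their side of the threshold, 86 of them with another sign and with neither value past it. The 1 reversal was Gm32754 by sex, which was 0.1017 CPM higher in females with header version 3.1.0 alone. Window genes called by edgeR numbered 6 over all kept nuclei, 0 with P301S Cgas+/+ against Cgas+/+ alone and 3 with version 3.1.0 alone. The shares of all genes called were 2.135%, 0.01571% and 2.596% in the same order. In astrocyte-like (5 called) and microglia-like nuclei (8) both settings gave 0, as they did over all genes tested. In excitatory neuron-like nuclei (0) DESeq2 gave 2 and version 3.0.2 alone 6, with 0.3292% and 1.95% of all genes called. In inhibitory neuron-like nuclei (0) version 3.0.2 alone gave 2 (1.772% of all genes), and in oligodendrocyte-like nuclei (0) DESeq2 gave 1 (1.567%). DESeq2 also called 1 of the described genes, Unc5c, for P301S Cgas-/-, where it called 2.261% of 16587 genes. The 2 calls by sex became 1 on the log2 scale and 0 with version 3.1.0 alone, and the 29 calls between classes became 0 with P301S Cgas+/+ or version 3.0.2 alone, where 6 mice cannot pass the adjustment.

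With each library left out in turn, the calls between classes ranged from 27 to 31, those by sex from 1 to 2 and those by Cgas genotype stayed at 0. Window calls ranged from 3 (without Cgas+/+ replicate 4 or Cgas+/- replicate 1) to 7 over all kept nuclei, 5 to 10 (without P301S Cgas+/+ replicate 2) in astrocyte-like and 7 to 10 in microglia-like nuclei. They ranged from 0 to 2 (without P301S Cgas+/+ replicate 2) in excitatory neuron-like, 0 to 1 (without Cgas+/+ replicate 5) in inhibitory neuron-like and 0 to 1 (without P301S Cgas+/+ replicate 4) in oligodendrocyte-like nuclei. Of single values, 11 comparisons between classes passed without 1 library or another, 2 calls of Gm32754 between classes were lost without any of 7 or 9 libraries, and Gbp2 and Gbp5 over all kept nuclei without any of 2 and 3. The cause was not tested for any of these.

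Counts over all genes moved more. In the tau contrast edgeR called 410 genes over all kept nuclei, 10 in excitatory neuron-like, 2 in inhibitory neuron-like, 512 in astrocyte-like, 3 in oligodendrocyte-like and 1301 in microglia-like nuclei. DESeq2 called 851, 56, 3, 839, 193 and 1387, P301S Cgas+/+ against Cgas+/+ alone 3, 2, 1, 0, 0 and 0, version 3.0.2 alone 189, 328, 219, 153, 16 and 588, and version 3.1.0 alone 492, 3, 1, 0, 0 and 0. With the version as a covariate they numbered 177, 7, 2, 306, 2 and 1179. For Cgas-/- and Cgas+/- edgeR called 0 and 1 and DESeq2 375 and 336. Replicate numbers were given in accession order and pair no mice. Pooled ratios in excitatory neuron-like nuclei moved by over 1.5 times for Gm43049 and Gm32754 with 1 tau-negative library left out, as given with them. Depth limits 4930590L14Rik, Gm32754 and Prnp outside excitatory neurons, where many libraries held 0 UMIs.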
